A study of Mus musculus with 8 samples.

Results

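The data described here are the gene expression profile of the tibialis anterior (TA) muscle of old wild-type mice (WT Old). The profile rests on the 4 WT Old libraries among the 8 libraries of the series, chosen by their labels. The other libraries came from old mice without fast myosin-binding protein C (C2-/-) and were not compared here. All 4 mice were males of the FVBN/WT genotype, and their labels give an age of 22 months, although a growth entry in the labels names a younger age. They carried no transgene and received no treatment named in the labels. Each library was made from the muscle of 1 mouse, so the spread between libraries joins the spread between mice with that of dissection and library preparation. The study asked how loss of fast myosin-binding protein C acts on fast muscle with age, and the WT Old mice were its reference.

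The TA is a fast-twitch muscle at the front of the lower leg. In mice it is built mainly from fibres with the IIb and IIx myosin heavy chains, which contract fast and draw their energy largely from glycogen and glucose. Calcium released from the sarcoplasmic reticulum exposes the actin filament to myosin, and the SERCA1 pump returns the calcium to the store. Muscle fibres hold many nuclei and make large amounts of a few proteins, so a small number of transcripts takes a large part of their mRNA. A piece of whole muscle also holds vessels, blood, nerve, connective tissue and resident immune cells.

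The 4 libraries held between 25425993 and 29747692 expected counts over 16686 genes. Levels are given as CPM, a gene's counts per 1000000 counts of its library. Between 11156 and 11294 genes reached 1 CPM in a mouse, and 10628 did so in every mouse. All such values are relative to the other genes of a library. A level of 3 counts lay between 0.101 and 0.118 CPM, and values given under it are not resolved. Intervals and such floors cover counting error only. In whole tissue, fewer cells of a type and less RNA per cell cannot be told apart. Mouse 2 stood apart from the other mice. On the log2 scale, 61.2% of the variance between the libraries lay along 1 component, on which mouse 2 took a score of 46.2 and the other mice scores between −25.5 and −9.11. The median absolute log2 difference of a gene was between 0.32 and 0.37 in pairs with mouse 2 and between 0.20 and 0.24 in the other pairs. Mouse 2 had more than 2-fold the mean of the other mice in 223 of the 6874 genes with a mean of at least 10 CPM, and less than 0.5 of it in 265 genes. In the other mice these numbers lay between 13 and 50 genes above and between 73 and 90 genes below. Of the 11308 genes with a mean of at least 1 CPM, 35.8% were at their lowest in mouse 2 and 31.1% in mouse 4. With library totals scaled by the trimmed mean of M values (TMM, factors between 0.938 and 1.04) these shares were 34.6% and 17.1%. Results under this scaling are given below for some genes, classes and lists only.

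The 4 genes taken as markers of this skeletal muscle were among the 13 highest genes of the profile. Acta1, the alpha-actin of skeletal muscle, had 60284, 61234, 48392 and 56382 CPM in mice 1 to 4. Myh4, the IIb myosin heavy chain, had 28368, 38595, 46528 and 62288 CPM in the same order. The spread of Myh4 was wide, with a coefficient of variation (CV, the SD as a percentage of the mean) of 32.6%, against 10.3% for Acta1. Ckm, the muscle creatine kinase, lay between 20477 and 25013 CPM, and Pvalb, the calcium buffer parvalbumin, between 5476 and 7895 CPM. All 4 markers were thus high in every mouse. Of these, Myh4 and Pvalb are fast fibre genes, while Acta1 and Ckm mark skeletal muscle in general. The Y-linked genes Ddx3y, Uty, Kdm5d and Eif2s3y summed to between 86.1 and 101 CPM per mouse, in keeping with the label of male mice.

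The sequences before the transcription start of 3 of these markers are shown because they carry motifs that few promoters hold. They are the 250 bases before the RefSeq start in build GRCm38.p6, the build of the deposited table. The RefSeq start of Pvalb lies 49 bases from that of the deposited table, and the other starts shown are the same in both. Capitals mark the TATA motif TATAAA, the CArG box (the element bound by serum response factor) and the MEF2 site, on either strand. Acta1 is shown from chr8:123894776-123895025 (minus strand), Myh4 from chr11:67237562-67237811 (plus strand) and Pvalb from chr15:78206401-78206650 (minus strand).
Acta1: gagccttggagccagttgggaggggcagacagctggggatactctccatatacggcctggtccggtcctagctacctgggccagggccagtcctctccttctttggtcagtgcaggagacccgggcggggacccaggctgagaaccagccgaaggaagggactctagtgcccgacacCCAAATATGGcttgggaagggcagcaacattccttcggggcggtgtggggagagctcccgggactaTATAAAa
Myh4: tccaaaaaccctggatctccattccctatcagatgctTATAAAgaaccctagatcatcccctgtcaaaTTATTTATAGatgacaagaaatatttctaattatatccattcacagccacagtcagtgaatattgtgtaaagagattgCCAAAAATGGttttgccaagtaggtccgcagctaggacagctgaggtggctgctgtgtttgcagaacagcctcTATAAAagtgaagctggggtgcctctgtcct
Pvalb: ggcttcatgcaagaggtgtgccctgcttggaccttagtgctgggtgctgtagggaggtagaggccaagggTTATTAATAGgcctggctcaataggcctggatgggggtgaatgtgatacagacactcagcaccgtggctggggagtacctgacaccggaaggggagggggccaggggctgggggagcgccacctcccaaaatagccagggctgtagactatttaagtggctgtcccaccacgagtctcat

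In Acta1 the CArG box began 73 bases before the start, and in Myh4 it began 104 bases before it. Myh4 held TATAAA 3 times on either strand, the nearest beginning 31 bases before the start, and its MEF2 site overlapped 1 of these. In Acta1 the TATA motif began 7 bases before the start. In Pvalb, capitals mark the MEF2 site alone, which began 180 bases before the start. Among the 12868 genes of the table with a promoter entry, 1.26% held a CArG box, 1.83% a MEF2 site and 7.58% TATAAA in these 250 bases. Among the 25 of the 30 highest genes with an entry, the shares were 12.0%, 16.0% and 16.0%. The CArG box was found for Acta1, Myh4 and Ldb3, and the MEF2 site for Myh4, Pvalb, Myh1 and Ttn. The E-box CANNTG, which myogenic factors such as MyoD bind, was found in 80.0% of these promoters and in 59.2% of all. These counts describe letters in a window and are no measure of binding.

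A small number of genes took most of the counts. The highest gene of a mouse took between 5.11% and 6.37% of its counts, the 10 highest between 26.9% and 31.7%, and the 100 highest between 50.1% and 53.8%. Only 67 genes made up the first 50% of the counts in mouse 4, against 89 to 99 genes in the other mice. Of the 10 highest genes of each mouse, 9 were shared by all 4 mice, as were 25 of the 30 highest and 79 of the 100 highest. By mean level, 9 genes lay at 10000 CPM or more and took 28.0% of the counts. A further 84 genes lay between 1000 and 10000 CPM and took 22.4%. The 4434 genes between 1 and 10 CPM took 1.97% of the counts, and 662 of the listed genes had no count in any of the 4 mice.

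**Figure D1:**
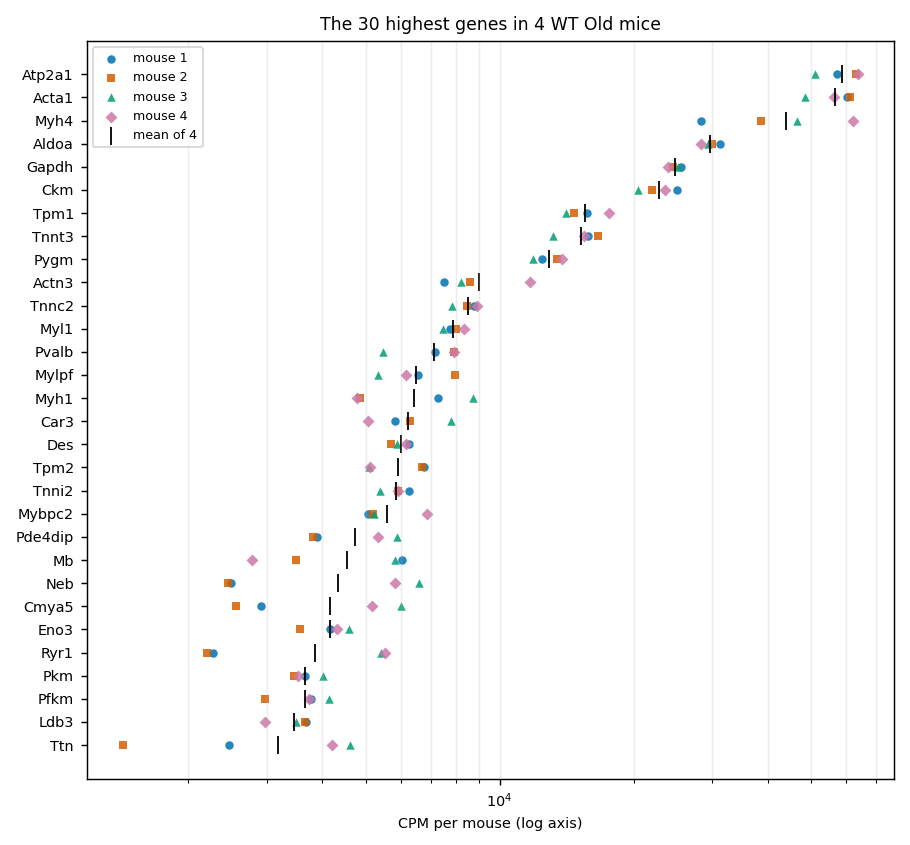
Level of the 30 highest genes by mean CPM (log axis) in each of the 4 WT Old mice (coloured points), with the mean as a black bar. Gapdh and Aldoa were tight between mice, whereas Myh4, Mb, Neb, Cmya5, Ryr1 and Ttn were spread widely. In 8 genes (Myh4, Mybpc2, Pde4dip, Neb, Cmya5, Eno3, Ryr1 and Ttn) mice 1 and 2 lay below mice 3 and 4. In Mybpc2, mice 2 and 3 were nearly level (5184 and 5212 CPM).

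The gene with the most counts was Atp2a1, which encodes the SERCA1 calcium pump. Its level was 57201, 63123, 51055 and 63681 CPM in mice 1 to 4, or 5.88% of all counts on average. The order of Atp2a1 over Acta1 (mean 56573 CPM) held in 3 of 4 mice, and that of Acta1 over Myh4 (mean 43945 CPM) likewise in 3 of 4 mice, so the 3 highest genes did not differ in rank beyond the spread. In mouse 4 Myh4 passed Acta1. No order was tested, since 4 mice are too few for an exact test to pass 0.05.

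Behind them came genes of glycolysis and of the thin filament. Aldoa, the muscle aldolase, had 31237, 29988, 29306 and 28297 CPM. Gapdh, the dehydrogenase of a later step, had 25517, 24509, 25195 and 23934 CPM and a CV of 2.86%, the smallest among the 30 highest genes. The mouse in which Aldoa, Gapdh and Ckm were highest changed under TMM scaling, as it did for 10 of the 30 genes. Their order, with Aldoa over Gapdh, Gapdh over Ckm and Ckm over Tpm1, held in 4 of 4 mice at each step. Tropomyosin 1 (Tpm1, 15528 ± 1524 CPM, mean ± SD, n = 4) and fast troponin T (Tnnt3, 15261 ± 1489 CPM) took turns, with Tpm1 higher in 2 of 4 mice. Pygm, the muscle glycogen phosphorylase, followed at 12908 ± 880.4 CPM. Among the next genes were Actn3 (alpha-actinin 3, 8994 ± 1869 CPM), Tnnc2 (fast troponin C, 8487 ± 482.0 CPM) and the myosin light chains Myl1 (7872 ± 365.2 CPM) and Mylpf (6493 ± 1078 CPM).

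Mybpc2, the gene of fast myosin-binding protein C that the study is about, was the 20th gene of the profile. It had 5063, 5184 and 5212 CPM in mice 1 to 3 and 6865 CPM in mouse 4, which stood 1.33-fold above the mean of the others. Its slow paralog Mybpc1 had 2047, 1875, 2711 and 2287 CPM. Counted per transcript length, Mybpc2 made up 72.9% ± 3.84 (SD, n = 4) of the sum of Mybpc2, Mybpc1 and Mybph, and Mybpc1 26.9% ± 3.91. Mybph, a related gene, held 0.175% ± 0.113, and the cardiac paralog was not part of this sum.

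Counts grow with transcript length, so levels of different genes were also set per length of the longest annotated transcript and rescaled to the same total as CPM (length-scaled CPM). On this scale Acta1 came first with 89999 ± 5785 length-scaled CPM, followed by Aldoa with 44221 ± 1431 and Atp2a1 with 38964 ± 3821. The order of Acta1 over Aldoa held in 4 of 4 mice and that of Aldoa over Atp2a1 in 3 of 4. Ttn, the gene of the giant protein titin, was 30th by counts and 1410th per length. The short genes of the contractile apparatus moved the other way, with Tnnt3, Tnnc2 and Mylpf directly behind Atp2a1. In the TPM that the authors deposited, Acta1 and Aldoa again took the first places, followed by Gapdh and Atp2a1. Myh4 was the ninth gene per longest transcript and the 12th in the deposited TPM, where lengths may have been set otherwise. Per longest transcript, Myh4 lay above Myl1, the next gene, in 2 of 4 mice.

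Genes were grouped into 27 classes that share no gene and together held 892 of the listed genes and 57.5% ± 1.44 of the counts. The remaining genes, in no class, took 42.5% ± 1.44. The classes of the sarcomere, calcium handling and energy supply, with 142 genes, took 44.2% ± 2.28 of all counts. Transcripts of the mitochondrial genome were not analysed here.

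**Figure D2:**
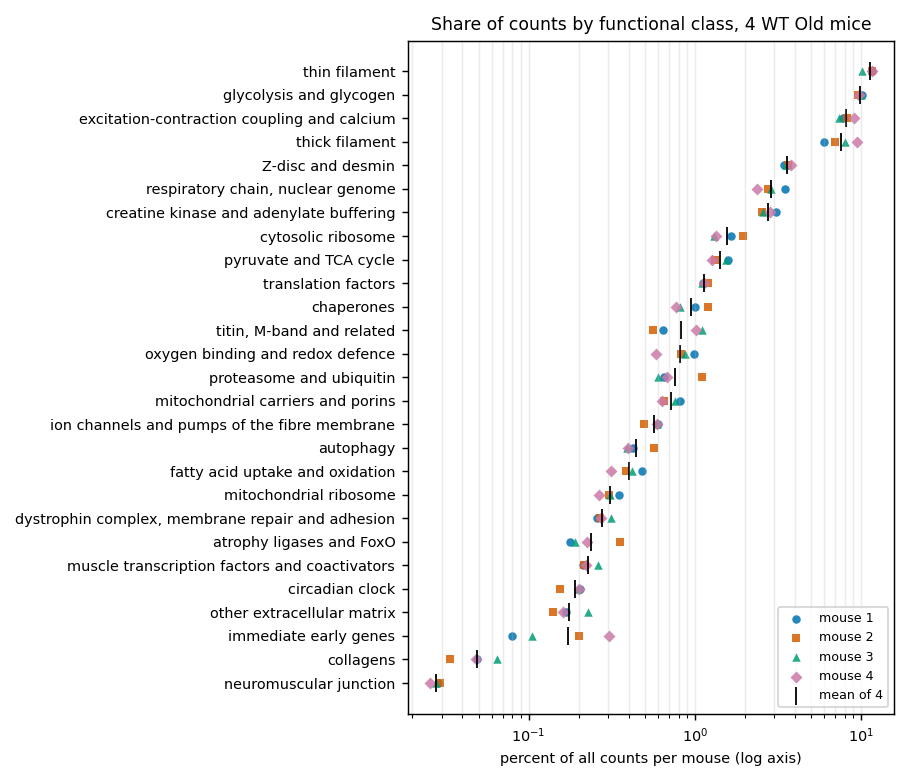
Share of all counts (percent, log axis) taken by each of 27 functional classes in each WT Old mouse (coloured points), with the mean as a black bar. Glycolysis and translation factors differed little between mice, while immediate early genes ranged from 0.0792% to 0.307%.

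The thin filament, with actin, tropomyosins and troponins, was the largest class at 11.3% ± 0.766 of the counts. It took 11.7%, 11.7% and 11.6% in mice 1, 2 and 4 and 10.15% in mouse 3, the lowest. Acta1 alone made up 50.1% of it. The thick filament took 6.03%, 6.95%, 8.02% and 9.53% in mice 1 to 4, and Myh4 made up 57.6% of it. In both Myh4 and the class, mice 1 and 2 lay below mice 3 and 4, as long transcripts did (values below), and the part of transcript length in them was not tested. Counting error was small against these differences, since the 95% Wilson interval of the thin filament share in mouse 3 ran from 10.14% to 10.16%. The Z-disc and desmin, the intermediate filament that ties myofibrils together, took 3.61% ± 0.1496, led by Actn3 and Des (6002 ± 262.5 CPM). Titin, the M-band and related proteins took 0.645%, 0.559%, 1.10% and 1.01% in mice 1 to 4, with mice 1 and 2 below mice 3 and 4.

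The fast isoform took most of the myosin and troponin families counted per length. Myh4 made up 78.6%, 88.6%, 83.7% and 92.5% of the sarcomeric myosin heavy chains in mice 1 to 4. Myh1, the IIx chain, made up 19.9%, 11.02%, 15.6% and 7.04% in the same order, as the remainder of that total. Myh2, the IIa chain of fast oxidative fibres, held 0.749% ± 0.511 and Myh7, the slow chain, 0.00986% ± 0.0123. Counts of Myh4, Myh1, Myh2 and Myh7 were fractional, and how the fractions arose is not given in the sources used here. Whether reads shared by these similar genes had been divided is not known, so the split between them is uncertain.

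The slow forms of the troponins were rare too, unlike the slow myosin-binding protein C described above. Tnnt3 made up 99.98% ± 0.0117 of the troponin T genes, Tnni2 99.99% ± 0.00635 of the troponin I genes and Tnnc2 99.98% ± 0.0127 of the troponin C genes. The 12 slow isoforms summed to between 113 and 149 CPM and the 14 fast isoforms, which include Mybpc2, to between 163417 and 208241 CPM. The slow list does not hold Mybpc1, and with it the 13 genes summed to between 1990 and 2823 CPM. Single slow genes differed widely between mice at these low levels. Myh7 had 2.68, 0.347, 2.11 and 19.4 CPM, and Sln, the sarcolipin that inhibits the calcium pump, had 1.97, 17.5, 0.878 and 1.55 CPM. The embryonic and neonatal chains Myh3 (1.79 ± 0.580 CPM) and Myh8 (2.36 ± 1.33 CPM) were low, and so was the cardiac chain Myh6 (3.04 ± 2.48 CPM). Myh13, the extraocular chain, had at most 0.117 CPM. Cardiac alpha-actin Actc1 made up 0.0323% ± 0.0210 of the pair that it forms with Acta1.

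Calcium handling and excitation-contraction coupling took 8.14% ± 0.697 of the counts, of which Atp2a1 made up 72.2%. Atp2a2, the slow and cardiac pump, made up 0.0314% ± 0.00540 of the pumps per length. Ryr1, the calcium release channel, had 2274, 2202, 5408 and 5514 CPM in mice 1 to 4, and mice 1 and 2 lay below mice 3 and 4. Casq1, which binds calcium inside the store, had 2769, 1764, 2980 and 3501 CPM. Cacna1s, the voltage sensor, ranged from 1108 to 1924 CPM. Triadin (Trdn), which ties Casq1 to the channel, ranged from 1134 to 1504 CPM and was higher in mice 2 and 4 than in mice 1 and 3.

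Glycolysis and glycogen use took 9.90% ± 0.278 of the counts, with the smallest relative spread of all classes (CV 2.80%). Aldoa made up 30%, Gapdh 25.03% and Pygm 13.0% of the class. The muscle forms of the enzymes made up nearly all of their families per length, with Pfkm at 99.8% ± 0.0995 of the phosphofructokinases, Eno3 at 98.3% ± 0.453 of the enolases and Ldha at 96.4% ± 1.54 of the lactate dehydrogenases. Pfkfb3, which makes the activator of phosphofructokinase, had 333, 40.9, 213 and 392 CPM, so that mouse 2 lay far below the others. Creatine kinase and adenylate buffering took 2.76% ± 0.248, of which Ckm made up 82.5%. Ampd1, the muscle AMP deaminase, was also lowest in mouse 2 (679 CPM against 1111 to 1515 CPM), where Ampd3 was highest (34.8 CPM against 5.55 to 10.02 CPM).

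The 5 mitochondrial classes together took 6.73%, 5.43%, 5.93% and 4.83% of the counts in mice 1 to 4. The nuclear genes of the respiratory chain took 2.88% ± 0.477, led by Atp5b of the ATP synthase (2981 ± 482.3 CPM) and Cox6a2, the muscle form of a cytochrome oxidase subunit (2289 ± 632.9 CPM). Their direction was the same in nearly all members, because 73 of the 82 genes with a mean of at least 1 CPM were highest in mouse 1 and 75 were lowest in mouse 4. Fatty acid uptake and oxidation took 0.401% ± 0.0691, with 19 of 23 genes highest in mouse 1 and 20 lowest in mouse 4. Mitochondrial ribosomal proteins took 0.307% ± 0.0351, with 52 of 78 genes highest in mouse 1 and 60 lowest in mouse 4. Over all 11308 genes, 27.2% were highest in mouse 1 and 31.1% lowest in mouse 4. Under TMM scaling 70 of the 82 respiratory chain genes were highest in mouse 1 and 63 lowest in mouse 4. For the 78 mitochondrial ribosomal genes these counts were 41 and 35. Over all genes the shares under that scaling were 21.15% and 17.1%. Myoglobin (Mb), the oxygen store of oxidative fibres, had 6034, 3491, 5827 and 2774 CPM, and the mitochondrial creatine kinase Ckmt2 had 1933, 1025, 1729 and 906.7 CPM. Both were higher in mice 1 and 3 than in mice 2 and 4, as Myh1 was. Short transcripts as a whole were also highest in mouse 1 and lowest in mouse 4, with values given below, and their part in the respiratory chain levels was not tested.

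Machinery for making and removing proteins formed the next group. Cytosolic ribosomal proteins took 1.65%, 1.95%, 1.31% and 1.35% of the counts in mice 1 to 4. Of their 85 genes with a mean of at least 1 CPM, 81 were highest in mouse 2, and 82 were under TMM scaling. Over all 11308 such genes, these shares were 31.4% and 34.5%. Of the 276 transcripts under 1000 bases (described below), 143 were highest in mouse 1 and 121 in mouse 2. The part of length in the ribosomal levels was not tested. Rps2 led them with 935, 1013, 738 and 717 CPM. Translation factors took 1.14% ± 0.0410, led by Eef1a2, the elongation factor of muscle and nerve, which was tight between mice (2356 CPM, CV 2.69%). Chaperones took 0.949% ± 0.196, with the small heat shock protein Hspb6 (2165 ± 521.9 CPM) first. Hspb7 had 682, 2222, 536 and 420 CPM, and Cryab 853, 807, 553 and 436 CPM.

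Proteasome and ubiquitin genes took 0.657%, 1.11%, 0.5999% and 0.684% of the counts, and 40 of 48 genes were highest in mouse 2. Over all 11308 genes with a mean of at least 1 CPM, 31.4% were highest in that mouse. Under TMM scaling the count was 42, and the share over all genes 34.5%. The polyubiquitin gene Ubb had 1176, 2191, 1059 and 1211 CPM, and its counts were fractional. The ubiquitin ligases of muscle loss and the FoxO factors took 0.179%, 0.356%, 0.190% and 0.224%, and autophagy genes 0.423%, 0.567%, 0.391% and 0.398%. In each of these 3 classes mouse 2 was highest.

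Structural genes outside the fibre were low. The 43 collagen genes of the table took 0.0490% ± 0.0126 of the counts, and 25 of them reached a mean of 1 CPM. Col4a1 (93.8 ± 16.0 CPM) and Col4a2 (76.6 ± 10.95 CPM) of the basement membrane led, followed by Col1a1 (49.8 ± 22.8 CPM), the main fibrillar collagen. Col1a1 had 42.8, 21.1, 72.2 and 63.2 CPM, with mouse 2 lowest. Of the other matrix genes, decorin (Dcn) led with 231 ± 41.6 CPM. Of these, 31 of 43 genes with a mean of at least 1 CPM were highest in mouse 3, against 32.4% of all such genes. Of the 451 transcripts of 8000 bases or more (described below), 332 were also highest in mouse 3, and the part of length was not tested.

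Neuromuscular junction genes formed the smallest class, at 0.0278% ± 0.00161 of the counts. Its lowest share, 0.0256% in mouse 4, lay outside the 95% Wilson intervals of the other mice. These intervals cover counting error only. The share was not recomputed under TMM scaling, whose factor was lowest in mouse 4 (0.938). Chrnb1, a subunit of the acetylcholine receptor, had 43.4, 66.9, 52.0 and 47.2 CPM, and Ache, which breaks acetylcholine down, 59.1, 21.9, 59.1 and 53.0 CPM. Of the transcription factors, Mef2c led with 619, 435, 885 and 638 CPM. Circadian clock genes took 0.205%, 0.155%, 0.199% and 0.1999%, with mouse 2 lowest. Nr1d1, a clock repressor, led them with 584, 289, 335 and 376 CPM.

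Markers of other cell types were present at low and differing levels. The endothelial list of 9 genes summed to 408, 271, 405 and 273 CPM, led by Cdh5 (104 ± 26.98 CPM) and Pecam1 (66.1 ± 12.0 CPM). Smooth muscle and pericyte genes summed to 428, 252, 383 and 276 CPM, led by Rgs5 and Acta2. Both vessel lists were higher in mice 1 and 3. Fibro-adipogenic progenitor genes summed to between 118 and 156 CPM, with Smoc2 and Cd34 first. Satellite cell genes summed to between 72.2 and 78.4 CPM, mostly from Spry1 and Cdh15, which other cells also express, while the defining Pax7 lay between 0.347 and 0.878 CPM.

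Nerve and tendon lists were each high in 1 mouse. Myelin genes of Schwann cells summed to 118, 51.6, 71.4 and 76.0 CPM. All 6 with a mean of at least 1 CPM were highest in mouse 1, against 27.2% of all such genes. Tendon genes summed to 68.0, 57.2, 202 and 117 CPM and were highest in mouse 3, where Fmod had 97.3 CPM and Thbs4 67.4 CPM. The matrix classes above were highest in the same mouse, and the part of tendon in them was not tested.

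Immune markers were low. Macrophage genes summed to 44.6, 95.04, 86.2 and 49.4 CPM, with Lyz2 and Csf1r first. No T or B cell gene reached a mean of 1 CPM, Cd3g, Cd8a and Ms4a1 stayed under 3 counts, and the list summed to between 0.725 and 1.61 CPM. Genes of antigen presentation, led by H2-D1 and B2m, summed to 310, 456, 265 and 264 CPM. All 6 with a mean of at least 1 CPM were highest in mouse 2, against 31.4% of all such genes. Neutrophil genes stood out in mouse 2, where S100a8 had 12.2 CPM against 0.229 to 1.11 CPM and S100a9 15.9 CPM against 0.382 to 2.02 CPM. Ngp had 5.52 CPM there against 0.0382 to 0.0787 CPM, which is under 3 counts in the other mice. The mast cell protease Mcpt4 was even, between 4.64 and 5.08 CPM. Nppa, the atrial peptide of heart, had no count in any of the 4 mice, which allows at most 0.101 to 0.118 CPM. The neuron genes Snap25, Rbfox3 and Nefl, the liver gene Alb and the epithelial gene Epcam stayed under 3 counts in every mouse. Low counts of other genes from these lists were present, with Cyp2e1, a liver enzyme, at 1.30, 7.54, 1.41 and 5.55 CPM.

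Adipocyte genes were also low, with Adipoq between 0.787 and 2.67 CPM. Their summed level was 276, 651, 247 and 263 CPM, which rested on Plin4, a lipid droplet gene that muscle fibres also express, with 157, 524, 155 and 172 CPM. Fabp4 lay between 69.1 and 112 CPM. The senescence list summed to 87.8, 473, 84.2 and 104 CPM, and this rested on Cdkn1a. Cdkn2a, the p16 gene, was at most 0.153 CPM in these old mice, and 2 of 4 libraries had no count. Of secreted factors, Igfbp5, which binds insulin-like growth factors, had 863, 193, 1065 and 1389 CPM, and myostatin (Mstn), which limits muscle growth, 35.5, 47.4, 41.4 and 68.7 CPM.

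**Figure D3:**
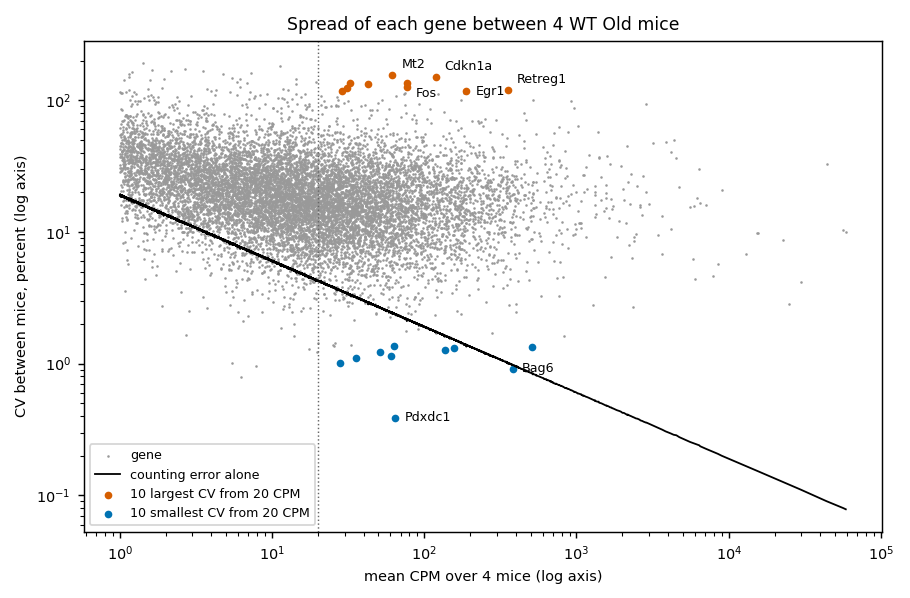
CV between the 4 WT Old mice (percent, log axis) against mean CPM (log axis) for 11308 genes with a mean of at least 1 CPM. The line is the CV that counting error alone would give, most genes lie above it, and coloured points mark the 10 largest and 10 smallest CVs from 20 CPM (dotted line).

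The spread between mice was larger than counting error for most genes. The median CV was 24.0% for the 4434 genes between 1 and 10 CPM, where counting error alone gives a median of 9.69%. It was 16.1% for the 5619 genes between 10 and 100 CPM, 16.3% for the 1162 genes between 100 and 1000 CPM and 16.0% for the 93 genes above. Counting error fell from 3.75% to 0.407% over these levels, so it was small against the spread there. Over all genes with a mean of at least 1 CPM the median CV was 19.0%, and 5.70% of them had a CV over 50%. The common biological coefficient of variation from edgeR was 25.8%. Without mouse 2 it was 19.2% and the median CV 14.2%. Without 1 of the other mice the biological coefficient lay between 26.8% and 28.2%.

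At the stable end, among the 4783 genes with a mean of at least 20 CPM, stood Pdxdc1 (64.8, 64.5, 64.2 and 64.6 CPM), Bag6, Rbm18, Golga7, Gosr2, Nudc, Pde4b, Lrrc14b, Cap2 and Map2k1. Their CVs ran from 0.389% to 1.35%. These hold for CPM on library totals and were not computed under TMM scaling. The TMM factors (0.938 to 1.04) differed more between mice than these levels did. In 9 of the 10 the CV was under that of counting error. Cap2, a regulator of actin filaments, was the highest of them with 500, 513, 516 and 508 CPM. None of these genes was among the 30 highest.

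The 10 genes with the largest CV were Mt2, Cdkn1a, Fos, Acss1, Fosb, Mt1, Tnfrsf12a, Retreg1, Cpne2 and Egr1, with CVs from 117% to 156%. Mouse 2 was the highest mouse in 7 of them and mouse 4 in the other 3, which are Fos, Fosb and Egr1. Cdkn1a, the cell cycle inhibitor p21, had 30.1, 385, 23.1 and 36.8 CPM. The metallothionein Mt2, which binds zinc and copper, had 5.27, 206, 9.20 and 27.1 CPM, and Mt1 had 16.2, 220, 18.8 and 52.5 CPM. Retreg1, a receptor for autophagy of the endoplasmic reticulum, had 115, 995, 148 and 166 CPM. Acss1, the mitochondrial acetyl-CoA synthetase, had 10.7, 98.6, 10.3 and 10.5 CPM. Without mouse 2 the CV of Acss1 was 1.89% and that of Cdkn1a 23.0%. Only 3 of the 10 remained among the 10 most variable genes without that mouse, while 44 of the 60 most variable genes of the whole set were highest in mouse 2.

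The pattern of mouse 2 was described further with a pair of lists written after these values were seen, so their counts are a description only. Their genes are known to be raised by glucocorticoid hormones and by FoxO factors in fasting muscle, and the part of either in these values was not tested. Of 15 FoxO and fasting targets, 14 were highest in mouse 2, and they summed to 1260, 5852, 1342 and 1930 CPM. Of 15 genes that respond to glucocorticoids, 13 were highest in mouse 2, also under TMM scaling, and they summed to 1323, 3463, 1494 and 1577 CPM. Over all genes with a mean of at least 1 CPM, 31.4% were highest in mouse 2.

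Of the ubiquitin ligases of muscle atrophy, Trim63 and Fbxo32 were highest in mouse 2, at 5.57-fold and 2.95-fold the mean of the other mice. Of the 13 atrophy ligase and FoxO genes, 8 were highest in mouse 2 and 3 lowest. Over all genes with a mean of at least 1 CPM these shares were 31.4% and 35.8%. Nedd4, which led that class, was highest in mouse 4 (598 CPM against 578 CPM in mouse 2). Trim63 (MuRF1) had 83.7, 649, 99.9 and 166 CPM, and Fbxo32 (atrogin-1) had 206, 924, 241 and 492 CPM. Pdk4, which turns pyruvate away from the mitochondria, had 131, 960, 288 and 435 CPM, and Foxo1 had 27.3, 83.2, 40.1 and 27.6 CPM. Mouse 4 came second in Trim63, Fbxo32 and Pdk4. Eif4ebp1, a brake on translation, had 85.1, 492, 62.3 and 87.8 CPM, and Gabarapl1 of the autophagosome had 30.6, 132, 21.8 and 27.1 CPM. Irs2 went the other way, with 9.09 CPM in mouse 2 and 36.6 CPM in mouse 4.

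The promoter of Trim63 is shown because letters that both factor families are known to bind lie side by side in it, at chr4:134314870-134315119 (plus strand, GRCm38.p6, RefSeq). Capitals mark AGAACA, the hexamer of steroid receptor sites, and GTAAACA, the core of FoxO sites, each on either strand.
Trim63: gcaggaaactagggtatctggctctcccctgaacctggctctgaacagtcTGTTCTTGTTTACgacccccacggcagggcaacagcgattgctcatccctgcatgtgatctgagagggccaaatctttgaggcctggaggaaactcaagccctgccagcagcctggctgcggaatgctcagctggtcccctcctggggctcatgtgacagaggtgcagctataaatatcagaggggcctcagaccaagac

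Both matches lie on the minus strand, and they began 200 and 194 bases before the start, so that they abut without overlap. In all 12868 promoters of this length, AGAACA was found in 11.4% and GTAAACA in 2.28%. The window alone does not show that either factor was bound in these muscles.

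Fkbp5, the chaperone that glucocorticoid receptors induce, had 30.1, 195, 48.9 and 20.6 CPM. Glul, glutamine synthetase, had 255, 1290, 244 and 278 CPM, and Lcn2 had 0.944, 42.0, 1.53 and 0.840 CPM. Other members of that list differed little, such as Sgk1 (279, 279, 241 and 261 CPM) and Tsc22d3 (216, 282, 259 and 226 CPM). Per1 was highest in mouse 3 with 215 CPM. Genes that respond to loss of the nerve were also highest in mouse 2 in 6 of 9 cases, against 31.4% of all genes. There Myog had 15.9 CPM against 2.49 to 4.995 CPM and Runx1 20.4 CPM against 2.94 to 4.03 CPM. Chrna1 had 57.3 CPM against 20.8 to 26.6 CPM. Hdac4 and Myh8 of the same list were lowest in mouse 2, with 23.9 CPM against 29.2 to 56.5 CPM and with 1.51 CPM against 1.78 to 4.34 CPM. Cdkn1a is a member as well. Without it the list summed to 93.6, 197, 98.6 and 117 CPM, and mouse 2 stood at 1.92-fold the mean of the others in place of 4.38-fold. Ankrd2, a stretch-responsive Z-disc gene, had 23.9, 67.1, 7.63 and 7.73 CPM.

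**Figure D4:**
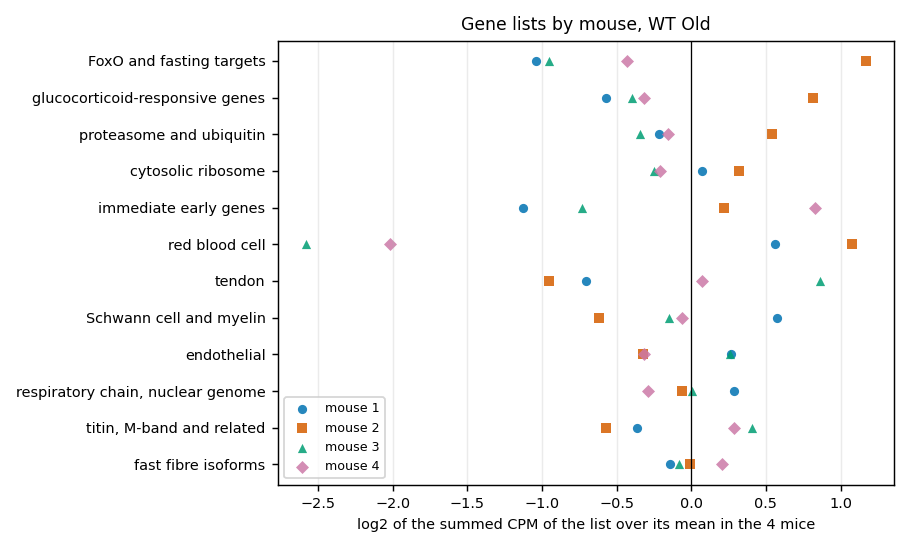
Summed CPM of 12 gene lists in each WT Old mouse, as the log2 ratio to the mean of the 4 mice. FoxO, glucocorticoid and proteasome lists were highest in mouse 2, immediate early genes in mouse 4, and red blood cell genes were high in mice 1 and 2.

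Immediate early genes, which cells switch on within minutes of a stimulus, were the class with the widest spread, at 0.0792%, 0.201%, 0.104% and 0.307% of the counts. Of the 19 genes, 17 were highest in mouse 4 and 11 were lowest in mouse 3. Over all 11308 genes with a mean of at least 1 CPM, these shares were 8.96% and 15.8%. Under TMM scaling the 2 counts were the same, and the shares over all genes were 19.9% and 24.5%. Fos had 4.56, 67.4, 7.97 and 228 CPM, Fosb 1.18, 48.2, 0.572 and 122 CPM, and Egr1 42.3, 207, 13.4 and 494 CPM. Mice 4 and 2 were thus the highest mice in each, far above mice 1 and 3. Nr4a1, a nuclear receptor induced by contraction, led the class and was spread less (292, 344, 494 and 607 CPM). Apold1, an early gene of vessels, had 2.40, 15.1, 4.43 and 24.1 CPM, in the same order of mice as Fos.

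Red blood cell transcripts followed another pairing. The alpha-globin gene Hba-a1 had 4363, 5895, 486 and 714 CPM, and the beta-globin gene Hbb-b1 had 1250, 2049, 152 and 229 CPM. Their counts were fractional, so the split among the globin genes is uncertain. Alas2, the haem synthesis enzyme of red cells, has no such copy and had 42.8, 64.3, 5.91 and 6.66 CPM. The list of 8 genes summed to 5820, 8351, 661 and 976 CPM, a range of 12.6-fold. The macrophage list was likewise highest in mouse 2, but mouse 1 had its lowest sum. The 4 neutrophil genes summed to 1.22, 33.9, 0.649 and 3.19 CPM, highest in mouse 2 and lowest in mouse 3.

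Mice 1 and 2 also differed from mice 3 and 4 by transcript length. Among 6860 genes with a mean of at least 10 CPM and a known length, the 276 transcripts under 1000 bases had median log2 ratios to the mean of the 4 mice of 0.19, 0.14, −0.17 and −0.25 in mice 1 to 4. For the 451 transcripts of 8000 bases or more the medians were −0.17, −0.33, 0.32 and 0.04. From the shortest to the longest group the medians fell steadily in mice 1 and 2 and rose steadily in mice 3 and 4. Of the short transcripts, 74.6% were higher in both mice 1 and 2 than in mice 3 and 4, and of the long transcripts 57.0% were lower in both, against 25.2% and 18.5% of the genes of all lengths.

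**Figure D5:**
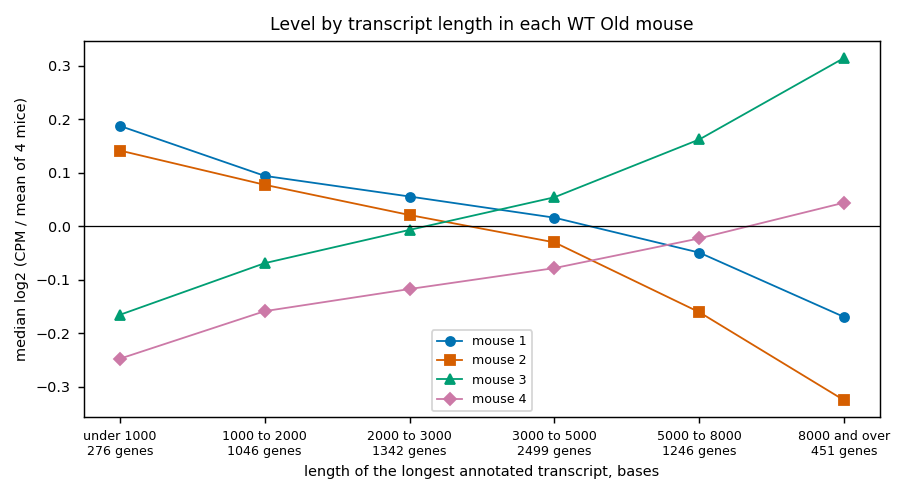
Median log2 ratio of CPM to the mean of the 4 mice, for genes grouped by the length of their longest annotated transcript, in each WT Old mouse. The lines of mice 1 and 2 fall with length and those of mice 3 and 4 rise.

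Genes of the giant muscle proteins lay at the far end of this tilt. Nebulin (Neb), the ruler of the thin filament, had 2500, 2461, 6587 and 5834 CPM, and Ttn had 2471, 1429, 4611 and 4208 CPM. Cmya5, a large protein of the muscle cytoskeleton, had 2913, 2564, 6001 and 5170 CPM. In all 3, mice 1 and 2 lay below mice 3 and 4. Myom1, a shorter gene of the M-band, had 1052, 1168, 1647 and 1394 CPM, the same split over a smaller range. The part of transcript length in the spread of the titin class and of Ryr1 was not tested. A difference in the muscle and a difference in RNA or library cannot be told apart for these genes.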

How the data were processed

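RNA with a poly(A) tail from the TA muscle of 8 old mice was sequenced on a DNA nanoball platform, and the 4 WT Old libraries were used. Per the labels and the study's methods, the authors removed low-quality and adapter reads and aligned the rest with HISAT to GRCm38.p6. The methods name featureCounts for the raw counts and edgeR and limma for the analysis. The submitters' processing notes also name Bowtie2 and DESeq2. The deposited table holds estimated counts per gene, of which between 5.50% and 6.35% per mouse were not whole, and the authors' TPM. How fractions arose from that counter or another, the library strand and the lengths behind the TPM are not given in the sources used here, and overlapping genes could not be told apart by strand. Of the 30 highest genes, 9 overlap another gene, of which Fam57b in Aldoa (232 CPM) and Pfn1 in Eno3 (169 CPM) were highest. The 12 further per-sample columns were not used. The authors' columns of log2 fold changes, p-values and group averages were not used either.

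CPM were computed on library totals of 16686 genes. Per-length values divided counts by the longest GENCODE transcript, known for 98.3% of genes. The biological coefficient of variation came from edgeR 4.0.16 (R 4.3.3) on rounded counts with TMM scaling, after a check on simulated data, and DESeq2 1.42.0 gave the RLE factors. Python 3.11.15, pandas 2.3.3 and matplotlib 3.10.9 served for the rest. No test between groups was run, since 1 group was described, and the only test was Dixon's for a mouse that stands apart from the others. No order between genes was tested. Where the number of mice that show an order is not given, a rank follows the mean over the mice alone.

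Genes were named by a rule: the 4 markers, the 30 highest genes, the 3 highest of each class, all sarcomeric myosin heavy chains, the 2 highest of each list and those under 3 counts, the 10 largest and 10 smallest CVs from 20 CPM, and genes of the study for aged TA. Members, classes and lists were chosen with earlier results of these data known. The other genes named, such as Casq1, Cacna1s, Trdn, Ampd1, Ampd3, Pfkfb3, Hspb7, Alas2, Sln, Pax7, Adipoq, Cdkn2a, Mstn, Myog, Runx1, Chrna1, Ngp and S100a8, and 2 of the lists, were chosen after their values were seen. Some genes that this rule names are not reported here. Promoters and motifs were read from RefSeq entries of GRCm38.p6, which 12868 genes of the table had.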

Additional observations from a re-analysis of the deposited data

Results flagged for a closer look

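In each group of 4 mice, a mouse was taken as standing apart where its gap to the nearest other mouse exceeded Dixon's critical share of the whole range at the 95% level, which chance passes in about 1 of 20 groups. Of the 6874 genes with a mean of at least 10 CPM, 498 (7.25%) held such a mouse, and in 295 of these it was mouse 2 with a high value. Of the 27 classes, 4 held such a mouse, of 144 genes named above 31, and of 25 gene lists 7. Many of these genes, and 2 of these lists, were chosen for their spread or after their values in mouse 2 were seen, so the counts for genes and lists cannot be read against the share of all genes.

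All values here are on library totals, and whether a mouse stood apart was not examined under TMM scaling (factors between 0.938 and 1.04). On library totals, mouse 3 stood apart with a low thin filament share of 10.2%. Mouse 2 stood apart with a high share of proteasome and ubiquitin genes (1.11%) and low shares of ion channels and pumps of the fibre membrane (0.493%) and of circadian clock genes (0.155%). Its summed levels were high for the FoxO and fasting targets (5851.8 CPM), the glucocorticoid-responsive genes (3462.8 CPM), both written to describe mouse 2, and for the adipocyte list (651 CPM), the denervation-responsive list (582 CPM), the senescence list (473 CPM) and the neutrophil and mast cell list (43.6 CPM). Cdkn1a is a member of 3 of these lists, and without it mouse 2 stood at 1.92-fold the mean of the others in the denervation list (4.38-fold with it), 1.43-fold in the senescence list (5.15-fold) and 3.69-fold in the FoxO list (3.87-fold). The neuron list was at 0 CPM in mouse 1 and at most 0.0763 CPM in the other mice, which is under 3 counts.

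Among single genes, mouse 2 was high in Retreg1 (995 CPM), Trim63 (649 CPM), Eif4ebp1 (492 CPM), Gabarapl1 (132 CPM), Ubb (2190.7 CPM), Hspb7 (2222.3 CPM) and Sln (17.5 CPM). It was also high in Glul (1289.8 CPM), Fkbp5 (195 CPM), Mt2 (206 CPM), Lcn2 (42.0 CPM), Plin4 (524 CPM), Ampd3 (34.8 CPM) and Acss1 (98.6 CPM), which act in metabolism, stress and hormone responses. Of genes of the cell cycle, nerve contact and signalling, it was high in Cdkn1a (385 CPM), Chrna1 (57.3 CPM), Runx1 (20.4 CPM), Tnfrsf12a (88.3 CPM) and Cpne2 (79.2 CPM). Of neutrophil genes it was high in S100a8 (12.2 CPM), S100a9 (15.9 CPM) and Ngp (5.52 CPM), and of Y-linked genes in Eif2s3y (32.5 CPM). It was low in Ache (21.9 CPM).

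Mouse 4 stood apart with high levels of Mybpc2 (6865.4 CPM) and Myh7 (19.4 CPM), and mouse 3 with a high level of Myh8 (4.34 CPM). The values of Cd8a, Epcam and Rbfox3 in mouse 4 (0.0336 CPM each) and of Snap25 in mouse 2 (0.0347 CPM) are single counts beside 0 in the other mice.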

How the results depend on the processing

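Class shares of all counts and the CPM of the 30 highest genes moved by less than 1 SD under TMM scaling, under RLE scaling (the size factors of DESeq2) and with each mouse left out, and class shares also with rounded counts. Which mouse stood apart in a class was not examined under these settings. All of the 30 highest genes kept their place among the 30 under TMM and RLE scaling and without mouse 1 or mouse 2, and 29 did without mouse 3 or mouse 4. Lengths mattered more. With the mean length of a gene's transcripts in place of the longest, Acta1 had 76057 length-scaled CPM, Myh4 10339 and Pvalb 10216, and in the deposited TPM, an alternative added after the data were seen, Acta1 had 72143 and Ckm 30508. Shares of the 27 classes per length moved by more than 1 SD for 11 classes with mean lengths and for 12 in the deposited TPM. The median CV was 21.75% over every gene with a count in each mouse and 16.14% over genes with a mean of at least 10 CPM, and between 14.2% (without mouse 2) and 19.0% with 1 mouse left out. The biological coefficient of variation was 28.65% with no filter beyond 1 count in total, and between 19.2% (without mouse 2) and 28.2% with 1 mouse left out. The cause of these moves was not tested. Sums of the slow list with Mybpc1, of the neutrophil genes alone and of 3 lists without Cdkn1a were also added after the data were seen. No paired analysis was possible because only 1 group was described. With 4 mice and 1 library each, the spread between animals, dissections and libraries cannot be told apart, and levels under 3 counts per library were not resolved.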
